A study of Mus musculus with 12 samples.

Results

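Globin and red cell genes were followed on arrays of macrophages sorted from mouse pancreatic tumours. The set comprised 7 genes of the 31093 gene names on the array, taken as the probes that the array annotation assigns to Hba-a1, Hba-a2, Hbb-b1, Hbb-b2, Hbb-bt, Alas2 or Slc4a1. Each had 1 probe of 60 bases. The samples were 6 YFP+ and 6 YFP− macrophage samples, each hybridised to a one-colour Agilent 4x44K array. All 12 samples came from female C57/B6 mice of 8 to 10 weeks that carried implanted tumours, and the labels give the genotype as not provided. The series' design names wild-type, KPC and FLT3-CRE/LSL-YFP mice; in the last of these, YFP marks cells descended from a progenitor in which the Flt3 promoter drove Cre, but which of these mice supplied the 12 samples is not stated. Each of 6 tumours, numbered 1 to 6 here in the order of its label, occurs once in each group. The labels do not say whether these are separate animals, so the p-values rest on variation among these samples alone, some of which may be technical.

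Haemoglobin, the oxygen carrier of the red cell, is built from alpha and beta globin chains that each hold a haem group. Alas2 is the erythroid form of the first enzyme of haem synthesis, and Slc4a1 encodes band 3, the anion exchanger and major membrane protein of the red cell. Young red cells still carry globin mRNA, and macrophages engulf ageing red cells and recycle their iron. The question here was whether such red cell RNA was present to the same extent in YFP+ and YFP− samples.

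The probes are shown because they set which globin genes can be told apart. The Hba-a1 probe lies at chr11:32183955-32184014 and the Hba-a2 probe at chr11:32184428-32184487 on the plus strand, both in mm9 per the array annotation. That annotation lists both of these probes for both alpha globin genes. The Hbb-b2 probe is listed for Hbb-b2 and Hbb-b1 and has no mapped position. The Hba-a1 and Hbb-b2 probes are given whole, 5′ to 3′.
Hba-a1: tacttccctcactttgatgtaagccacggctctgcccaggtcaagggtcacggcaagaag
Hbb-b2: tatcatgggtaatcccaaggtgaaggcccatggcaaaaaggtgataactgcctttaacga

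The Hbb-b1 probe, at chr7:110976379-110976438 on the minus strand in mm9, is listed for Hbb-b1 and for Hbb-bs. Hbb-bs and Hbb-bt are the adult beta globin genes of the C57BL/6 reference, whereas Hbb-b1 and Hbb-b2 are those of another haplotype. The first 30 bases of the probe were set against the start of both reference genes (RefSeq, GRCm38.p6), with capitals at the positions where Hbb-bs and Hbb-bt differ.
Hbb-b1 probe: tttgcttctgaCATAgttgtgttgactCAc
Hbb-bs: tttgcttctgaCATAgttgtgttgactCAc
Hbb-bt: tttgcttctgaTTCTgttgtgttgactTGc
The probe equalled Hbb-bs at all 30 bases. It differed from Hbb-bt at 6 of them, namely C12T, A13T, T14C, A15T, C28T and A29G, counted from 1 at the 5′ end of the probe with the probe's base first. The Hbb-bt probe, at chr7:110961105-110961164 on the minus strand in mm9, is listed for Hbb-bt alone. The 5 globin probes therefore do not give 5 separate gene levels, and signals of different probes are not set against each other. Below, a globin gene name stands for the probe of that name. Counts of globin genes are thus counts of probes, some of them listed for the same genes.

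All 7 genes were detected, and the globin transcripts were lower in YFP+ samples. The signal of each of the 5 globin probes was lower in YFP+ than in YFP−, by between 3.32-fold and 12.5-fold. Alas2 and Slc4a1 did not pass the test. Thus 5 of 7 genes were called lower in YFP+ with limma at an adjusted p under 0.05, against 1.41% of the 20370 genes tested (1.75% were called in either direction). The median difference over the 7 genes was −2.20 on the log2 scale, and over all genes tested it was −0.03. In sorted bulk samples, fewer red cells or erythroid cells and less of their RNA per cell cannot be told apart. With tumour number as a replicate block, 2 of 7 were called, Hbb-b1 and Hbb-b2 (limma adjusted p = 0.013 and 0.018), while Hbb-bt, Hba-a2 and Hba-a1 missed the threshold at 0.051, 0.058 and 0.065. With slide and that block together 0 were called. The 5 calls were fragile to single arrays. 1 gene remained called without YFP− array 1, 2, 3 or 5 or without YFP+ array 5, 2 without YFP− array 6 or YFP+ array 2 or 3, 3 without YFP+ array 4, and 6 without YFP+ array 1. With array brightness as a covariate, a setting chosen after seeing the data, 0 of 7 were called.

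Levels are given as log2 processed signal minus the 75th percentile of the array, for tumours 1 to 6 in order. Hba-a1, which encodes the adult alpha globin chain, read 4.44, 3.59, 3.15, 1.59, 2.90 and 3.89 in YFP+ and 4.78, 5.66, 6.01, 4.43, 5.64 and 4.97 in YFP−. The groups met at 1 point, where the YFP+ sample of tumour 1 (4.44) barely exceeded the YFP− sample of tumour 4 (4.43). Hba-a1 was 3.97-fold lower in YFP+, a log2 difference of −1.99 with a standard error of 0.45 (limma adjusted p = 0.045). A two-sided exact permutation test on the 12 arrays gave p = 0.0043.

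Hba-a2, the neighbouring alpha globin gene, read 4.79, 3.96, 3.85, 2.37, 3.01 and 4.18 in YFP+ and 5.32, 5.47, 5.92, 5.05, 5.50 and 5.27 in YFP−. Every YFP+ sample lay below every YFP− sample, and the YFP− samples were close together, with an SD of 0.29 against 0.87 in YFP+ (n = 6 each). The log2 difference was −1.73 with a standard error of 0.36, or 3.32-fold (limma adjusted p = 0.031). Leaving out 1 array at a time, the call held in 4 of 12 cases for Hba-a2 and in 2 of 12 for Hba-a1, with adjusted p up to 0.074 and 0.10 in limma.

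The Hbb-b1 probe read −0.54, −1.42, −1.05, −4.61, −1.82 and 0.03 in YFP+ and 2.82, 2.56, 3.33, 0.29, 2.02 and 1.45 in YFP−. The groups did not overlap, although the YFP− sample of tumour 4 was only 0.26 above the YFP+ sample of tumour 6. This beta globin probe showed the largest difference of the 7 genes, −3.64 with a standard error of 0.73, or 12.5-fold lower in YFP+ (limma adjusted p = 0.025). The call held in 7 of 12 fits that each left out 1 array.

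Hbb-b2 read 1.52, 0.78, 1.30, −0.89, −0.19 and 1.48 in YFP+ and 3.33, 3.14, 3.83, 2.26, 3.07 and 2.67 in YFP−. The lowest YFP− sample lay 0.74 above the highest YFP+ sample. The difference was −2.38 with a standard error of 0.44, or 5.22-fold (limma adjusted p = 0.014), and it was the only one of the 7 genes called in all 12 fits that each left out 1 array.

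Hbb-bt, one of the adult beta globin genes of the C57BL/6 reference, read 2.42, 1.06, 1.22, −0.72, −1.23 and 1.80 in YFP+ and 3.79, 3.33, 3.88, 2.61, 3.49 and 3.08 in YFP−. The groups did not overlap, and the spread within YFP+ (SD 1.44) was wider than within YFP− (SD 0.47, n = 6 each). The difference was −2.61 with a standard error of 0.57, or 6.10-fold (limma adjusted p = 0.039). It was called in 3 of 12 fits that each left out 1 array. Hba-a2 and the 3 beta globin probes each had a two-sided exact permutation p of 0.0022, the smallest that 6 against 6 arrays can give. These 4 of 7 genes did not overlap and were lower in YFP+, against 1.45% of all genes tested. The permutation tests ignored tumour number, so their p-values do not allow for arrays that share it.

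**Figure D1:**
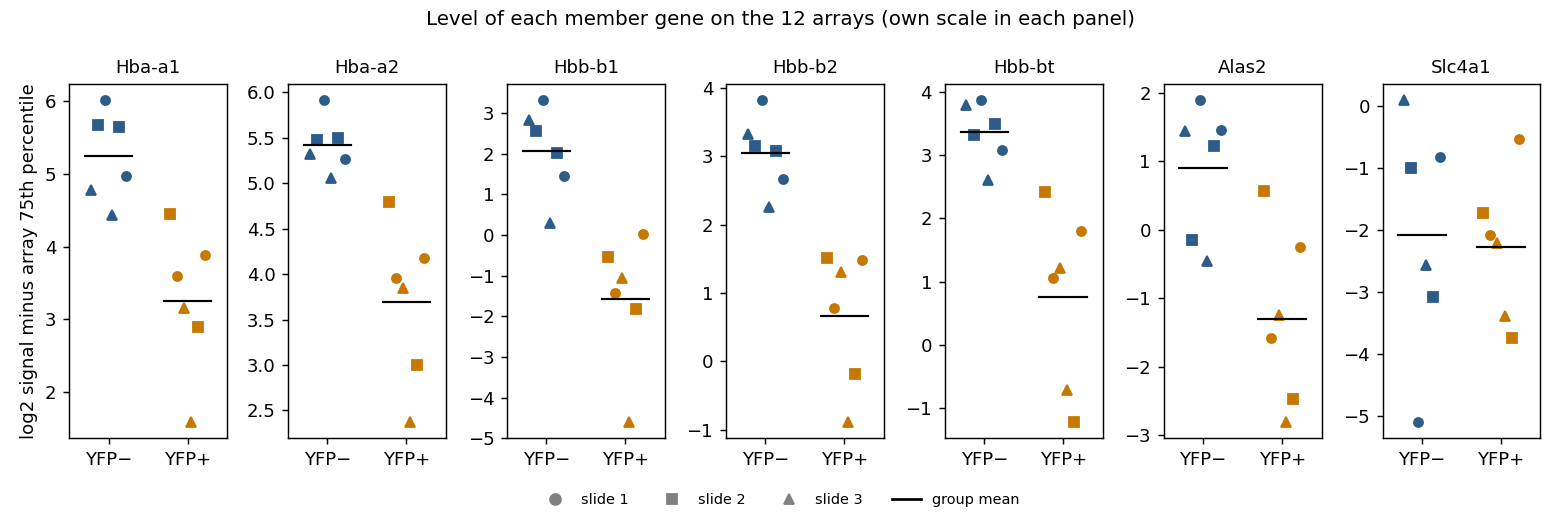
Log2 processed signal minus the 75th percentile of the array (vertical axis, own scale in each panel) for each of the 7 genes in 6 YFP− and 6 YFP+ samples, with symbols for the slide and a line at the group mean. The YFP+ points lie below all YFP− points for Hba-a2, Hbb-b1, Hbb-b2 and Hbb-bt, meet them for Hba-a1, and overlap them for Alas2 and Slc4a1.

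Alas2 read 0.56, −1.58, −1.25, −2.81, −2.48 and −0.26 in YFP+ and 1.43, −0.16, 1.89, −0.46, 1.23 and 1.46 in YFP−. In 6 of 6 tumours the YFP+ sample was the lower of the pair, but YFP+ sample 1 lay above YFP− samples 2 and 4. The difference of −2.20 had a standard error of 0.61 and a 95% interval of −3.52 to −0.88, and it did not pass the test across all genes (limma adjusted p = 0.11, two-sided exact permutation p = 0.011 for this probe alone). It passed without YFP+ array 1, and with normexp background correction, at limma adjusted p-values of 0.045 and 0.042.

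Slc4a1 read −1.73, −2.09, −2.21, −3.40, −3.74 and −0.54 in YFP+ and 0.10, −1.004, −5.10, −2.57, −3.09 and −0.83 in YFP−. The YFP+ values lay within the range of the YFP− values, which spread more widely (SD 1.89 against 1.16, n = 6 each), and the lowest value of all belonged to YFP− array 3, the array with the highest level of every globin gene. The difference was −0.20 with a standard error of 0.83 (limma adjusted p = 0.96, two-sided exact permutation p = 0.82). Its 95% interval, −1.998 to 1.595, includes differences as large as those of the alpha globin genes in log2 terms, so these arrays do not show that band 3 RNA was equal in the groups. Without YFP− array 3 the difference was −0.81, and without YFP− array 1 it was 0.23.

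Detection did not separate the groups. All 7 probes were well above background on 6 of 6 YFP+ arrays, and 6 of them on 6 of 6 YFP− arrays. Slc4a1 was not well above background on YFP− array 3 and was so on the other 5 YFP− arrays (two-sided Fisher's exact p = 1). All 7 probes exceeded the 95th percentile of the negative control spots on all 12 arrays.

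The globin genes ranked the samples of a group in much the same order. YFP− array 3 was the highest of its group and YFP− array 4 the lowest for each of the 5 globin genes and for Alas2. Among YFP+ samples, arrays 1 and 6 held the first 2 ranks and arrays 4 and 5 the last 2 for each globin gene. With each gene centred over the 12 arrays, the mean globin level ran from −3.05 to −0.07 in YFP+ and from 0.33 to 1.996 in YFP−. With the group means removed, the Pearson correlation of each gene with the mean of the other 6 lay between 0.79 for Hba-a1 and 0.93 for Hbb-b2, including 0.81 for Alas2, and was 0.27 for Slc4a1. These are descriptions over 12 arrays that share probes listed for the same genes.

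The tumour numbers differed in the size of the globin difference. For Hba-a1 it was −0.34 in tumour 1 and −2.86 in tumour 3, and for Hbb-b1 it ranged from −1.42 in tumour 6 to −4.90 in tumour 4. Alas2 ranged from −0.88 in tumour 1 to −3.70 in tumour 5. For Slc4a1 the YFP+ sample was lower in 4 of 6 tumour numbers and higher by 2.89 in tumour 3.

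The 12 arrays lay on 3 slides of 4, each with 2 arrays of either group, so the difference could be read within each slide. Hbb-b1 differed by −3.08, −3.47 and −4.38 on slides 1, 2 and 3, and Hba-a2 by −1.52, −1.59 and −2.08. All 5 globin genes and Alas2 were lower in YFP+ on each slide. Slc4a1 was 1.65 higher in YFP+ on slide 1, which holds YFP− array 3, and differed by −0.69 and −1.57 on slides 2 and 3. With 2 arrays against 2, none of the 7 genes passed limma's test on a single slide. With slide as a block, 4 of 7 were called, and Hbb-bt was not among them.

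**Figure D2:**
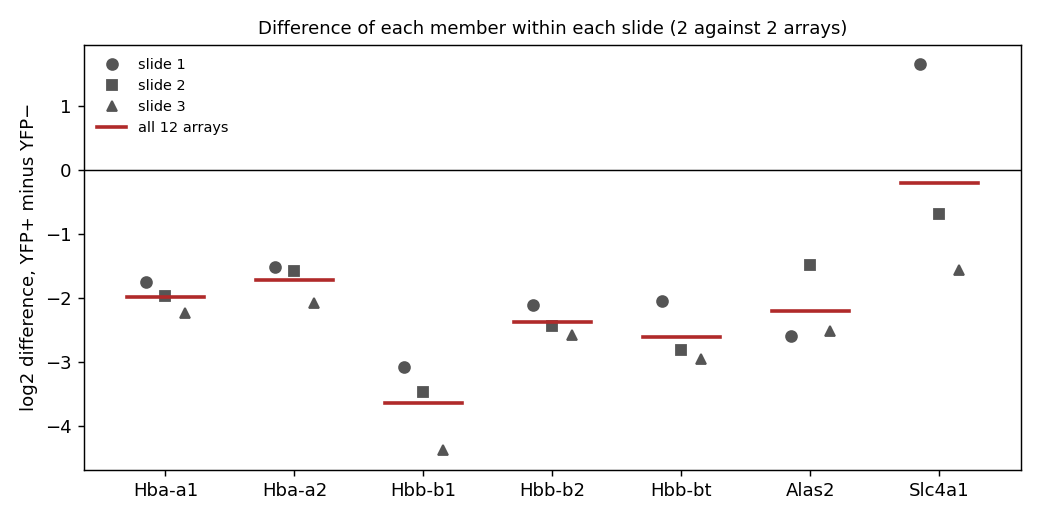
Log2 difference, YFP+ minus YFP− (vertical axis), of each of the 7 genes within slides 1, 2 and 3 (symbols, 2 arrays against 2) and over all 12 arrays (red line). The symbols lie below 0 on every slide for the globin genes and Alas2, and on both sides of 0 for Slc4a1, from −1.57 to 1.65.

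Other genes of the red cell programme were listed by role. Of 61 such genes with a probe, 44 were tested, 1 was called lower in YFP+ and 0 higher, with a median difference of −0.26. The remaining 17 were well above background on fewer than 6 of the 12 arrays. Among the untested genes, Klf1, the transcription factor that switches on adult beta globin, was detected on 2 YFP+ arrays and 1 YFP− array. Ahsp, the chaperone of free alpha globin, was detected on 3 YFP+ and 2 YFP− arrays.

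The called gene was Aqp1, a water channel of the red cell membrane that endothelial and epithelial cells also express. It ran from −5.57 to −2.25 in YFP+ (median −4.19) and from −1.50 to 0.30 in YFP− (median −1.07), with no overlap. The difference was −3.30 with a standard error of 0.55, or 9.88-fold lower in YFP+ (limma adjusted p = 0.0084), and the probe was well above background on 4 YFP+ and 6 YFP− arrays. Its limma adjusted p was 0.28 with brightness as a covariate and 0.12 without slide 3. The other 8 membrane and skeleton genes tested did not pass. Ank1, the ankyrin that ties band 3 to spectrin, differed by −1.28 with a standard error of 0.38 (limma adjusted p = 0.15).

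None of the 13 tested genes of haem synthesis and mitochondrial iron import was called, with a median of 0.15 and 9 of 13 higher in YFP+. The smallest p-values were those of Abcb6, a porphyrin transporter (1.09, standard error 0.69, limma adjusted p = 0.63), and of Slc25a38, the mitochondrial glycine carrier (0.28, standard error 0.21, limma adjusted p = 0.71). Alas1, the form of the first enzyme found in all tissues, differed by 0.15 with a standard error of 0.17, beside −2.20 for Alas2. Whether Alas1 and Alas2 differed in their change was not tested.

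Of 6 erythroid transcription factors tested, none was called (median −0.22). Zfpm1, the GATA cofactor, differed by −0.77 and Tal1 by −0.61, with limma adjusted p-values of 0.51 and 0.70. The 4 receptors had a median of −0.58 and none was called. Tfr2, the second transferrin receptor, differed by −2.04 with a standard error of 0.70 (limma adjusted p = 0.24), and Kit, the stem cell factor receptor, by 0.71 with a standard error of 0.38 (limma adjusted p = 0.54).

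Of 10 late erythroid enzymes and other genes tested, none was called, and 9 of 10 were lower in YFP+ (median −0.44). Car2, carbonic anhydrase 2, differed by −1.13 with a standard error of 0.39 (limma adjusted p = 0.24). Of 7 further globin and chaperone genes on the array, only 2 were detected widely enough to test. These were the beta-like genes Hbb-bh2 (0.39) and Hbb-y (−0.44), and neither was called. Hbb-bs, an adult beta globin gene of the reference, was not among the probe names analysed here, although the Hbb-b1 probe is listed for it.

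Genes by which macrophages take apart haem and handle its iron were examined because they respond to engulfed red cells. None of 12 was called, with a median of −0.16 and 10 of 12 lower in YFP+. Slc40a1, the iron exporter ferroportin, ran from −1.67 to 0.76 in YFP+ and from 0.09 to 1.69 in YFP−, a difference of −1.55 with a standard error of 0.45 (limma adjusted p = 0.13). Fth1, the ferritin heavy chain, differed by −0.49 with a standard error of 0.18 (limma adjusted p = 0.27). Hmox1, the haem-degrading enzyme, differed by −0.13 with a standard error of 0.33.

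All 11 macrophage markers were well above background in both groups and none was called (median −0.11). Lists of epithelial, fibroblast and acinar markers were also lower in YFP+ by their medians. Within a group, some of them followed the globin level in part and others did not. The epithelial list was lowest within YFP− (0.18) on array 4, where globins were lowest. Within YFP+ it was highest (−0.26) on array 1, where globins were highest. Its highest YFP− value (1.17, array 5) and lowest YFP+ value (−1.36, array 3) fell on other arrays than those of the globins. The acinar list was lowest within YFP− (−1.38) on array 3, where globins were highest. It read 2.77 on YFP− array 4, where globins were lowest. Within YFP+ the fibroblast list was highest (−0.72) on array 4, where globins were lowest. In the epithelial list 4 of 9 were called lower in YFP+ and 9 of 9 were lower (median −1.79), with mean centred levels from −1.36 to −0.26 in YFP+ and from 0.18 to 1.17 in YFP−. In the fibroblast list 6 of 8 were called lower and 8 of 8 were lower (median −1.85), with levels from −1.39 to −0.72 and from −0.06 to 1.93. Of 7 acinar genes 1 was called lower (median −1.77, levels from −2.60 to 0.31 and from −1.38 to 2.95). None of these 3 lists had a marker that went undetected throughout a group. The part of these cells in the globin difference was not tested.

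Platelet, endothelial, neutrophil and B cell lists had no called gene. Platelet and megakaryocyte markers, cells that circulate with red cells, had a median of 0.26 over 11 tested genes, with mean levels from −0.52 to 0.74 in YFP+ and from −0.52 to 0.36 in YFP−. The endothelial median was −0.23 over 10 tested genes, with levels from −0.97 to 0.60 and from −0.61 to 0.99. The neutrophil median was −1.60 over 7, but the list was split, with 4 lower and 3 higher in YFP+ (levels from −0.80 to 0.60 and from −0.30 to 0.61). The B cell median was 0.33 over 3 (levels from −0.93 to 1.38 and from −1.12 to 0.79). Robo4 was undetected throughout YFP+ and Ms4a1 throughout YFP−.

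**Figure D3:**
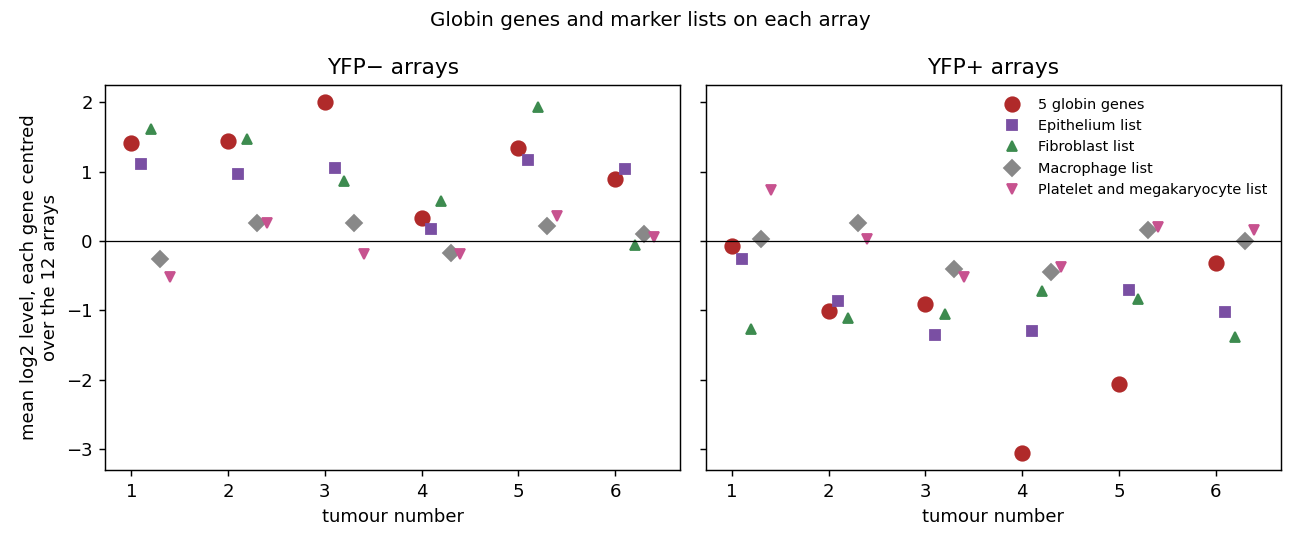
Mean log2 level of the 5 globin genes and of 4 marker lists on each array, each gene centred over the 12 arrays (vertical axis), by tumour number (horizontal axis) and group. Globin, epithelial and fibroblast points are mostly above 0 in YFP− and below 0 in YFP+, where globins run from −3.05 to −0.07, and macrophage and platelet points lie on both sides of 0 in both groups.

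The named genes outside the set whose levels most resembled the mean of the 7 genes, with group means removed, were Cgn (r = 0.95), Krt8 (0.90), Wfdc2 (0.89), Plat (0.87) and Mfsd10 (0.87). These Pearson correlations run over the same 12 arrays and are descriptions. Spearman's rho was lower for Cgn (0.73), Krt8 (0.78) and Plat (0.67), and was 0.92 for Wfdc2 and 0.87 for Mfsd10. Cgn was well above background on 4 YFP+ and 6 YFP− arrays. Cgn (cingulin, of tight junctions) and Krt8 (a keratin) are genes of epithelial cells. Krt8, Wfdc2 and Plat were called lower in YFP+, with differences of −2.59, −3.17 and −2.99, and Cgn (−3.00) and Mfsd10 (0.03) were not called by limma.

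Arrays also differed in brightness. YFP+ arrays had a 75th percentile of processed signal of 3661 ± 265, with a range of 3264 to 3931, and YFP− arrays one of 2642 ± 413, with a range of 2121 to 3332 (mean ± SD over 6 arrays). A permutation test, exact and two-sided, gave p = 0.0043, and every level here is relative to that percentile. With brightness as a covariate the differences were −3.07 for Hbb-b1, −2.21 for Hbb-b2, −2.90 for Hbb-bt, −1.36 for Hba-a2 and −1.02 for Hba-a1, with limma adjusted p-values from 0.37 to 0.57. Slc4a1 moved to −3.11 in that fit. The brightness ranges of the groups overlapped only between 3264 and 3332, so this fit cannot tell brightness from group. The part of brightness in the results was not otherwise tested.

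Since the globin genes moved together, the 250 bases upstream of their start are given where the RefSeq table lists them (GRCm38.p6, in the direction of the gene). Capitals mark the motifs AGATAA and TGATAA, which GATA factors bind, CCACACCC, bound by Klf1, CCAAT, and the TATA-like ATATAA, each searched on both strands. The window of Hbb-bs, which is not among the 7 genes, is shown because the Hbb-b1 probe equals that gene over the bases compared above. The windows are Hba-a1 at chr11:32283422-32283671 (plus strand), Hbb-bt at chr7:103813924-103814173 and Hbb-bs at chr7:103827929-103828178 (both minus strand), and Alas2 at chrX:150547167-150547416 (plus strand).
Hba-a1: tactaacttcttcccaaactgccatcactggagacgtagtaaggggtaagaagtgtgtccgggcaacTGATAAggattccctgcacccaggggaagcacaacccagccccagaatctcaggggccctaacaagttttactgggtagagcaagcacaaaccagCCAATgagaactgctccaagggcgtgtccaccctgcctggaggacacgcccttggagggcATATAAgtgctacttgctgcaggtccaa
Hbb-bt: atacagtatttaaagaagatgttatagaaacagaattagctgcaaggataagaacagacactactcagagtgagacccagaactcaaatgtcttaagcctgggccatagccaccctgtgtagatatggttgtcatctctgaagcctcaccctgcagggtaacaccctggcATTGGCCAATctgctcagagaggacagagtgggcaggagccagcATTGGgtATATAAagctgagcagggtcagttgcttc
Hbb-bs: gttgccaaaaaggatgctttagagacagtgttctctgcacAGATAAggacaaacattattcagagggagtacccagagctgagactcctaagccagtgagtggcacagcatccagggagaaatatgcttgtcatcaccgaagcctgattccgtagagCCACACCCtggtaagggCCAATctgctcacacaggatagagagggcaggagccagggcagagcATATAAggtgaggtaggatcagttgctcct
Alas2: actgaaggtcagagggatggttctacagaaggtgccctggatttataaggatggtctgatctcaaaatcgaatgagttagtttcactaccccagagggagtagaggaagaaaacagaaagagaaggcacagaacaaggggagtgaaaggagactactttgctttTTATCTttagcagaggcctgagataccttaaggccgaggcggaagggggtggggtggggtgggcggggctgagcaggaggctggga

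Over the full RefSeq windows of 300 bases, which run 50 bases past the start, the Hba-a2 window moved by 3 bases equalled that of Hba-a1 at 297 of 297 bases. Hba-a1 held TGATAA from −183, CCAAT from −88 and ATATAA from −28, counted from the start of transcription. Hbb-bt held CCAAT from −75 and, on the other strand, from −80 and −36, and ATATAA from −29. Hbb-bs held AGATAA from −210, CCACACCC from −93, CCAAT from −76 and ATATAA from −30. Alas2 held AGATAA on the other strand from −86. No match of one motif overlapped a match of another. Of 32851 upstream windows of this length, 9.99% held AGATAA, 7.94% TGATAA, 3.20% CCACACCC, 33.9% CCAAT and 9.10% ATATAA. A match describes the letters alone.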

How the data were processed

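Per the file headers, the authors' intensity values are red-channel signals from Agilent Feature Extraction 11.5.1.1, background-subtracted and not scaled between arrays. Per the labels' protocols, RNA of the sorted cells was copied to cDNA, amplified and given a Cy5 label. The authors also deposited a value table, on a log2 scale by its values, used as an alternative; 0 of its columns were unused. Control spots (1377) and outlier spots were left out, spots of a probe averaged, and log2 signals taken minus each array's 75th percentile. A probe was kept if 6 or more of the 12 arrays had it well above background, with 1 probe per gene, the highest in mean (20370 genes). The number of arrays limits the precision.

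The comparison used limma 3.58.1 in R 4.3.3 (group as the only factor, Benjamini-Hochberg over all genes, threshold 0.05), checked on simulated data. Intervals are the fit's 95% intervals. Single probes were also compared by two-sided exact permutation (scipy 1.17.1). No list was tested as a set. Accessions of 28330 of 39429 probes matched RefSeq names (GRCm38.p6), while the 7 genes keep the array's name. Named genes were the 7, each called gene and the 2 smallest p-values of each list, and the 5 most alike, apart from items not reported here; Alas1, Hmox1 and undetected genes were added after their values were seen. Genes and lists were chosen with earlier results of these data known. Alternatives were tumour number or slide as a block, median centring, quantile normalization, normexp (offset 50), the deposited table, other filters, probe rules and thresholds, an intensity trend, single slides and leaving out each array; brightness as a covariate and leaving out slide 3 were added after seeing the data.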

Additional observations from a re-analysis of the deposited data

How the results depend on the processing

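Among the genes named or listed here, the only ones followed one by one, no alternative reversed a called difference. Of the 7 genes, 5 were called in the main analysis, and between 1 and 6 when 1 array was left out. The count was 3 with median centring or with no filter, 2 with tumour number as a replicate block (Hbb-b1 and Hbb-b2), 0 with slide and replicate block together, 0 on slide 1, 2 or 3 alone, 0 with brightness as a covariate, 1 (Hbb-b1) without slide 3, and 0 at an adjusted p under 0.01. The other settings gave 4 to 6. Of the other erythroid genes 1 was called, 0 when probes had to be above background on all 12 arrays (Aqp1 is not tested there), on a single slide, with brightness as a covariate or without slide 3, and 1 to 2 without 1 array (2 without YFP− array 4). Over all genes 356 were called: 556 with slide as a block, 201 with slide and replicate block together, 536 with normexp, 233 with the filter on all 12 arrays, 0 on each slide alone, 12 with brightness as a covariate, 196 without slide 3, 144 and 562 at adjusted p under 0.01 and 0.10, and 266 to 383 without 1 array. The causes of these changes were not tested, beyond fewer arrays or genes in the settings that leave some out. Median centring moved the median of all genes to 0.18, and 230 of 346 calls were then lower in YFP+, against 288 of 356. Samples with the same tumour number deviated together in some pairs only (correlations from −0.30 to 0.37). Tumours 4, 5 and 6, whose samples shared a slide, gave 0.37, 0.19 and 0.28. Tumours 1, 2 and 3, whose samples lay on different slides, gave −0.30, 0.11 and −0.13. Tumour number and slide cannot be told apart here, so these correlations do not decide whether the numbers pair the samples. The block by tumour number called 296 genes.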
